A study of Mus musculus with 6 samples.

Results

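The genes described here are the receptor chains, kinases and transcription factors that carry interferon signals from the cell surface to the nucleus: Ifnar1, Ifnar2, Ifngr1, Ifngr2, Jak1, Jak2, Tyk2, Stat2 and Irf9. They were chosen by name and found in the count table by their Ensembl identifiers, 9 genes of the 53465 listed. The cells were EMT6, a mouse mammary carcinoma line kept in culture in the absence of immune cells. EMT6 vitro Parental cells (P-VITRO, 3 libraries) were grown with an isotype control antibody and EMT6 vitro anti-PD-L1 Resistant cells (PTR-VITRO, labelled EMT6 PDR, 3 libraries) with an αPD-L1 antibody, each at 0.5 μg/ml for more than 4 weeks. PD-L1 is a surface protein through which tumor cells restrain T cells. The comparison asked whether prolonged antibody exposure alone is accompanied by a different supply of transcripts for the interferon pathway. Nothing in the labels says that the replicates were separate cultures, and the study calls its replicates technical unless stated otherwise, so the p-values measure only the spread between these libraries.

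Type I interferons bind a receptor made of IFNAR1 and IFNAR2, which carry the kinases TYK2 and JAK1. Type II interferon (IFNγ) binds IFNGR1 and IFNGR2, which carry JAK1 and JAK2. After type I signaling, STAT2 joins IRF9 in a complex named ISGF3 that binds the interferon-stimulated response element, while the type II signal reaches genes through the gamma-activated sequence. The kinases and STAT proteins are activated by phosphorylation, which RNA levels do not measure.

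All 9 genes passed the filter on low counts, with mean counts from 493.7 for Tyk2 to 3333.7 for Jak1. None was called at an adjusted p below 0.05 in the edgeR quasi-likelihood test over all 14217 tested genes, of which 0.246% were called. Stat2 alone had an unadjusted p below 0.05, 1 of 9 against 11.4% of all tested genes. Without PTR-VITRO replicate 1 there were 3, Stat2 and Irf9 (higher) and Tyk2 (lower). Groups did not overlap for 2 of the 9 genes, Stat2 (higher in PTR-VITRO) and Ifngr2 (lower), against 17.6% of all genes. By log2FC (the fitted log2 fold change of PTR-VITRO over P-VITRO) 5 of the 9 lay above 0, against 48.5% of all genes, and the median was 0.02 for the 9 (-0.01 when P-VITRO replicate 3 was left out) and -0.00397 for all genes. In bulk RNA, fewer cells of a kind and less RNA per cell cannot be told apart. These shares, from 9 genes, describe the members and set them apart from no other genes.

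Libraries held between 17757341 and 32426739 counts, of which PTR-VITRO replicate 3 was the shallowest. The mammary carcinoma markers Krt8, Krt18 and Vim were high, Epcam was below 3 CPM (counts scaled to library size), and Cdh1 had at most 1 count in a library. Over the 7 mammary and carcinoma markers the summed level ran from 3404 to 3516 CPM in P-VITRO and from 3499 to 3578 CPM in PTR-VITRO. Over the 8 immune and endothelial markers it ran from 11.99 to 13.4 CPM and from 11.4 to 13.0 CPM. Krt18 averaged 489.0 ± 14.6 CPM against 549.0 ± 23.1 CPM, with no overlap (edgeR adjusted p 0.139). Krt14 went from 8.76 ± 0.423 CPM to 7.33 ± 0.563 CPM (log2FC -0.25, adjusted p 0.347) and Epcam from 1.59 ± 0.306 CPM to 2.24 ± 0.149 CPM (log2FC 0.48, adjusted p 0.392), each also with no overlap. Of the 5 tested markers of this list, groups did not overlap in 2 higher and 1 lower. Over all tested genes these shares were 8.27% and 9.33%. DESeq2 called 1 of the 5, Krt18, where it called 0.781% of the 14217 genes. The part of these markers in the results was not tested. Cd68 gave most of the immune sum, and Ptprc, which defines leukocytes, and Adgre1 had a count of 0 in all 6 libraries.

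**Figure D1:**
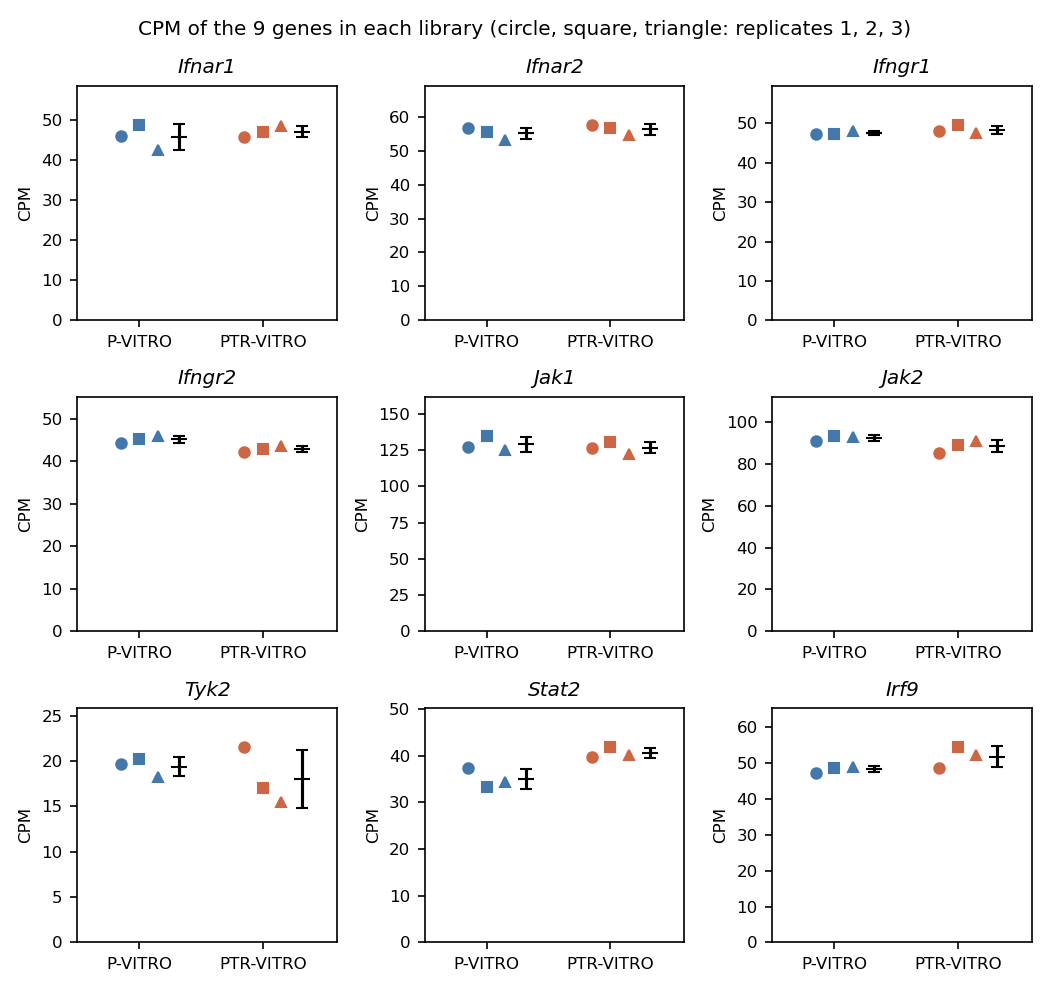
CPM of each of the 9 genes (vertical axes from 0) in the 3 P-VITRO libraries (blue) and the 3 PTR-VITRO libraries (orange), with the mean and SD of each group in black. Points of the groups are apart for Stat2 and Ifngr2 only, and the spread that is widest for its mean is that of Tyk2 in PTR-VITRO, from 15.4 to 21.5 CPM.

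The genes for 3 of the 4 interferon receptor chains lie together on mouse chromosome 16 with Il10rb, which encodes a chain shared by the receptors for IL-10 and type III interferons. In GRCm38 the order on the plus strand is Ifnar2 (91372783 to 91405589), Il10rb (91406164 to 91425834), Ifnar1 (91485238 to 91507441) and Ifngr2 (91547072 to 91565623), a span of 192.8 kb. Only 574 bases separate Ifnar2 from Il10rb. Il10rb gave 34.4, 34.6 and 36.5 CPM for P-VITRO, and 37.9, 36.1 and 37.0 CPM for PTR-VITRO (log2FC 0.07, edgeR adjusted p 0.599), and its groups overlapped. In this cluster the fitted values of Ifnar2, Il10rb and Ifnar1 lay above 0 and that of Ifngr2 below, and none passed the test.

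Ifnar1 (ENSMUSG00000022967.12) encodes the chain that docks TYK2, and the study knocked it down in other experiments to test dependence on type I signaling. Values are given in the order of replicates 1, 2 and 3. It gave 46.0, 48.7 and 42.4 CPM for P-VITRO, and 45.7, 47.0 and 48.3 CPM for PTR-VITRO. P-VITRO replicate 2 was the highest and P-VITRO replicate 3 the lowest of the 6 libraries, and the PTR-VITRO values fell inside that range. Its log2FC was 0.04 (SE 0.055, 95% interval -0.09 to 0.16, edgeR adjusted p 0.854), and it ran from -0.01 without P-VITRO replicate 3 to 0.09 without P-VITRO replicate 2.

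Ifnar2 (ENSMUSG00000022971.18) encodes the chain that docks JAK1 and binds interferon with high affinity. It gave 56.5, 55.5 and 53.2 CPM for P-VITRO, and 57.5, 56.7 and 54.6 CPM for PTR-VITRO. The groups overlapped, and replicate 3 was the lowest of each. This gave a log2FC of 0.03 (SE 0.0432, interval -0.06 to 0.13, adjusted p 0.824), which ran from 0.01 when P-VITRO replicate 3 was dropped to 0.06 when replicate 3 of PTR-VITRO was dropped. Its estimates were whole in only 1 of the 6 libraries. Gm21970, a coding gene on the same strand, shares 315 exon bases with Ifnar2 at full identity and gave 0.343, 2.07 and 0 CPM for P-VITRO, and 0.401, 0.424 and 0.561 CPM for PTR-VITRO. The sum of the pair was 55.9 ± 2.36 CPM (SD, n = 3) and 56.7 ± 1.45 CPM (n = 3).

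The promoter windows of these type I receptor genes are printed because each holds the letters of a gamma-activated sequence, TTCNNNGAA, shown in capitals. Windows run from 250 bases before to 50 bases after the RefSeq start (RefSeq, GRCm38.p6), and both strands were searched. Ifnar1 has the match TTCACGGAA beginning 5 bases before the start and Ifnar2 has TTCCTGGAA beginning 214 bases before it. The letters occur in 8.3% of all 32851 promoter windows. A match of letters is a description and does not show binding.
Ifnar1 promoter (chr16:91484965-91485264, plus strand): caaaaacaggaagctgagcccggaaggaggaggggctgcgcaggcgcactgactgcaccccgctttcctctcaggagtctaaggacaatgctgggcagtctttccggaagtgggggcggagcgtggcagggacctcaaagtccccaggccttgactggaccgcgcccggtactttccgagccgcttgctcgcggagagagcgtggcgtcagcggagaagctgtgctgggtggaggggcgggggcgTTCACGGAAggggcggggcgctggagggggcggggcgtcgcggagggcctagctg
Ifnar2 promoter (chr16:91372533-91372832, plus strand): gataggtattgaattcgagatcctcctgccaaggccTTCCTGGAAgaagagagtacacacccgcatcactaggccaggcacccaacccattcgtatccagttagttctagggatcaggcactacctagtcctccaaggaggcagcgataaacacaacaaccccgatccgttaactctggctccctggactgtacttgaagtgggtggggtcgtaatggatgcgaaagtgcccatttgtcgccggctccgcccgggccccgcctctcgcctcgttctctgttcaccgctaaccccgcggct

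Ifngr1 (ENSMUSG00000020009.12, chromosome 10, 19591949 to 19610229, plus strand) encodes the chain of the IFNγ receptor that binds the ligand and docks JAK1. It gave 47.4, 47.3 and 48.1 CPM for P-VITRO, and 48.0, 49.6 and 47.5 CPM for PTR-VITRO. Its SD within P-VITRO was 0.882% of the mean, the smallest of the 9 genes and below the 2.87% that counting error alone would give. The groups overlapped (log2FC 0.02, SE 0.0414, interval -0.07 to 0.12, adjusted p 0.872). Dropping PTR-VITRO replicate 2 gave 0.00702, and dropping replicate 3 of PTR-VITRO gave 0.04.

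Ifngr2 (ENSMUSG00000022965.7) encodes the second chain of the IFNγ receptor, which brings JAK2. It gave 44.3, 45.4 and 46.0 CPM for P-VITRO, and 42.2, 43.0 and 43.6 CPM for PTR-VITRO. Every PTR-VITRO library was below every P-VITRO library, a pattern found in this direction in 9.33% of all tested genes. The log2FC was -0.08 (SE 0.0425, interval -0.17 to 0.02, p 0.0957, adjusted p 0.533 in the edgeR fit), and it ran from -0.09 to -0.06 when a library was left out. The gap between the means, 45.2 ± 0.847 CPM (n = 3) against 42.9 ± 0.701 CPM (n = 3), exceeded the SD of each group but did not pass the test.

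Jak1 (ENSMUSG00000028530.14, chromosome 4, 101152367 to 101265282, minus strand) encodes the kinase used by both interferon receptors. It gave 127.0, 134.5 and 124.7 CPM for P-VITRO, and 126.6, 130.7 and 122.5 CPM for PTR-VITRO. Replicate 2 was the highest and replicate 3 the lowest in each group, and the ranges overlapped (log2FC -0.02, SE 0.0428, interval -0.12 to 0.07, adjusted p 0.883). The sign turned when P-VITRO replicate 2 (0.01) or replicate 3 of PTR-VITRO (0.00246) was left out.

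Jak2 (ENSMUSG00000024789.12, chromosome 19, 29251828 to 29313080, plus strand) serves the IFNγ receptor and several hormone-type cytokine receptors. It gave 90.72, 93.1 and 92.7 CPM for P-VITRO, and 85.2, 88.7 and 90.75 CPM for PTR-VITRO. The highest PTR-VITRO library exceeded the lowest P-VITRO library narrowly, so the groups overlapped. Jak2 had a log2FC of -0.07 (SE 0.0398, interval -0.15 to 0.02, adjusted p 0.576), and -0.04 when PTR-VITRO replicate 1 was left out.

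Tyk2 (ENSMUSG00000032175.11, chromosome 9, 21104068 to 21131243, minus strand), the kinase docked to IFNAR1, was the lowest of the 9 genes per kilobase of exon. It gave 19.6, 20.3 and 18.3 CPM for P-VITRO, and 21.5, 17.0 and 15.4 CPM for PTR-VITRO. PTR-VITRO held both the highest and the lowest library. The SD was 5.22% of the mean in P-VITRO and 17.6% in PTR-VITRO, where counting error alone would give 4.64%. The log2FC was -0.09 (SE 0.107, interval -0.33 to 0.14, adjusted p 0.798), the widest interval of the 9. With 1 library left out it ran from -0.25 (adjusted p 0.249) without PTR-VITRO replicate 1 to -0.00182 without replicate 3. An antisense gene, 1700084C06Rik, overlaps 554 exon bases of Tyk2 and averaged 0.0677 CPM for P-VITRO and 0.287 CPM for PTR-VITRO. Whether the counting used the strand is not stated, and the part of this overlap in the Tyk2 values was not tested.

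Stat2 (ENSMUSG00000040033.16, chromosome 10, 128270559 to 128292849, plus strand) encodes the ISGF3 subunit that carries the activation domain, and is itself known as an interferon-induced gene. It gave 37.4, 33.3 and 34.4 CPM for P-VITRO, and 39.7, 41.9 and 40.2 CPM for PTR-VITRO. All 3 PTR-VITRO libraries lay above all 3 P-VITRO libraries, as in 8.27% of tested genes. The means were 35.01 ± 2.12 CPM (n = 3) and 40.6 ± 1.12 CPM (n = 3). The log2FC was 0.22 (SE 0.0543, interval 0.10 to 0.34), a 1.16-fold difference, with an edgeR p of 0.00227 and an adjusted p of 0.170, so Stat2 was not called. It ranked 189th by p among the 14217 genes. The adjusted p was 0.026 when no filter on low counts was used and lay between 0.149 and 0.172 under TMM scaling, no scaling factor, a stricter filter, the replicate block, DESeq2 and limma-voom. With 1 library left out the log2FC ran from 0.18 to 0.27 and the adjusted p from 0.173 to 0.502.

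Irf9 (ENSMUSG00000002325.15, chromosome 14, 55603571 to 55610030, plus strand) encodes the DNA-binding partner of STAT2 and is likewise interferon-induced. It gave 47.4, 48.7 and 48.9 CPM for P-VITRO, and 48.6, 54.5 and 52.3 CPM for PTR-VITRO. PTR-VITRO replicates 2 and 3 were above all P-VITRO libraries, while PTR-VITRO replicate 1 was within the P-VITRO range. Irf9 had a log2FC of 0.10 (SE 0.05, interval -0.01 to 0.21, p 0.0759, adjusted p 0.501 in edgeR). Leaving out PTR-VITRO replicate 2 gave 0.06, and leaving out PTR-VITRO replicate 1 gave 0.15. Irf9 shares 123 exon bases with Rnf31 on the same strand, and its estimates were whole in 0 of the 6 libraries. Rnf31 averaged 11.9 CPM for P-VITRO and 10.9 CPM for PTR-VITRO, and the sum of the pair was 60.3 ± 0.349 CPM (n = 3) and 62.7 ± 2.68 CPM (n = 3).

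The promoter windows of Stat2 and Irf9 are shown because these partners had the highest fitted changes of the 9 genes. They were searched on both strands for the core of the interferon-stimulated response element, here GAAA followed by any 2 bases and GAAA. Stat2 held it on the minus strand, read on the plus strand as TTTCAGTTTC (capitals) and beginning 222 bases before the start. It was the only one of the 9 genes to do so, where 3.44% of all windows hold the letters. Among the 15 genes listed as ISGF3 targets, 14 were matched and 8 held them. So did 3 of the 7 matched genes listed as type II (IFNγ) targets and 4 of the 10 interferon ligand genes. Of the 11 matched genes for other cytokine receptors that use the same JAKs, 0 did. For Irf9 the window at the first of its RefSeq starts is printed, and neither of its 2 windows held the letters. GENCODE places the Irf9 start upstream of both windows, and the region around that start was not searched. The Stat2 window ends at 128270547, before the GENCODE start of Stat2 at 128270559, so the distance of its match is from the RefSeq start.
Stat2 promoter (chr10:128270248-128270547, plus strand): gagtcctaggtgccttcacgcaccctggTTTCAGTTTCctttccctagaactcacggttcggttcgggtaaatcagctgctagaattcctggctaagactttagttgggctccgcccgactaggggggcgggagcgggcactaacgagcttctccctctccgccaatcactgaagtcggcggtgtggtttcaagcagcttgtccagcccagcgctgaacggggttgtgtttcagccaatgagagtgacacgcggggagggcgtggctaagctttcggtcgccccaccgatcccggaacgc
Irf9 promoter (chr14:55603735-55604034, plus strand): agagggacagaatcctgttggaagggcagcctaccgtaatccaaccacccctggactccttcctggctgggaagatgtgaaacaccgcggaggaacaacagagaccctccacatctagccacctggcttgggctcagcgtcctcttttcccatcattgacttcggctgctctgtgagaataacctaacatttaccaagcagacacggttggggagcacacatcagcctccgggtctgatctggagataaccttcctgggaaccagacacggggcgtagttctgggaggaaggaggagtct

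All 9 genes matched the promoter table. The windows held 9 CpG sites at the first Irf9 start, 1 at its second start and from 14 (Ifngr1) to 44 (Jak2) in the other genes, against a median of 7 over all windows. Their G and C content ran from 52.7% to 81.0%, against a median of 52.7%.

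**Figure D2:**
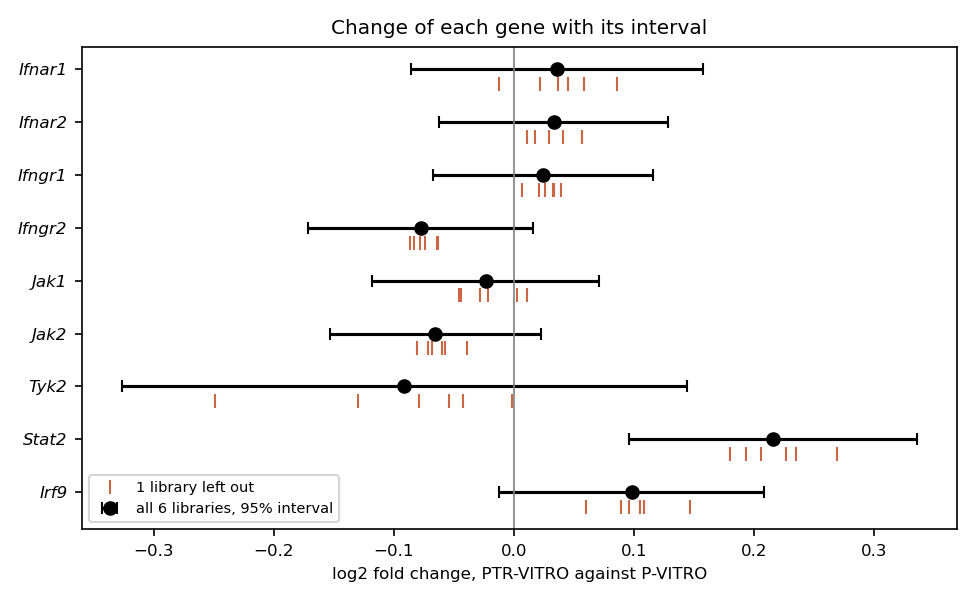
Fitted log2FC of each gene (horizontal axis, PTR-VITRO against P-VITRO) with its 95% interval in black, and the values with 1 library left out as orange ticks. The interval of Stat2, from 0.10 to 0.34, is the only one that does not contain 0, and that of Tyk2 is the widest.

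The intervals give the sizes of change that the spread between these libraries allows. Like the p-values they measure only that spread, and they do not bound what other cultures would give. Apart from Stat2 and Tyk2, the bound farthest from 0 was 0.21 on the log2 scale, the upper bound of Irf9, or 1.16-fold. For Ifnar1, Ifnar2 and Ifngr1 the upper bounds were 1.12-fold, 1.09-fold and 1.08-fold, and the lower bounds were 0.943-fold, 0.958-fold and 0.955-fold. For Tyk2 the interval reached from 0.797-fold to 1.105-fold.

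Levels were compared between genes as CPM per kilobase of merged exons, which for 3 of the 4 receptor chains, Jak1 and Jak2 were above 10 in every library. Jak2 was highest at 17.9 ± 0.583 (SD over 6 libraries), followed by Jak1 at 17.7 ± 0.597, Ifngr1 at 16.9 ± 0.296 and Ifnar2 at 16.7 ± 0.479, and neighbors among these 4 overlapped in range. Ifngr2 at 11.7 ± 0.384, Irf9 at 9.30 ± 0.506, Ifnar1 at 7.80 ± 0.381, Stat2 at 6.38 ± 0.576 and Tyk2 at 2.72 ± 0.325 did not overlap their neighbors. The length matters for this order. Per kilobase of the longest coding transcript, a choice made after seeing the data, Jak1 was first at 26.0, Ifngr1 at 22.7, Ifnar2 at 18.3, Jak2 at 17.9 and Irf9 at 16.9, since the merged exons of Irf9 (5386 bases) are far longer than its longest coding transcript (2959 bases). By this length Ifnar2 overlapped Jak2 in range, Jak2 overlapped Irf9, and Ifngr2 and Ifnar1, both at 11.9, overlapped each other. Stat2 at 8.60 and Tyk2 at 3.87 were the eighth and ninth under each length.

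**Figure D3:**
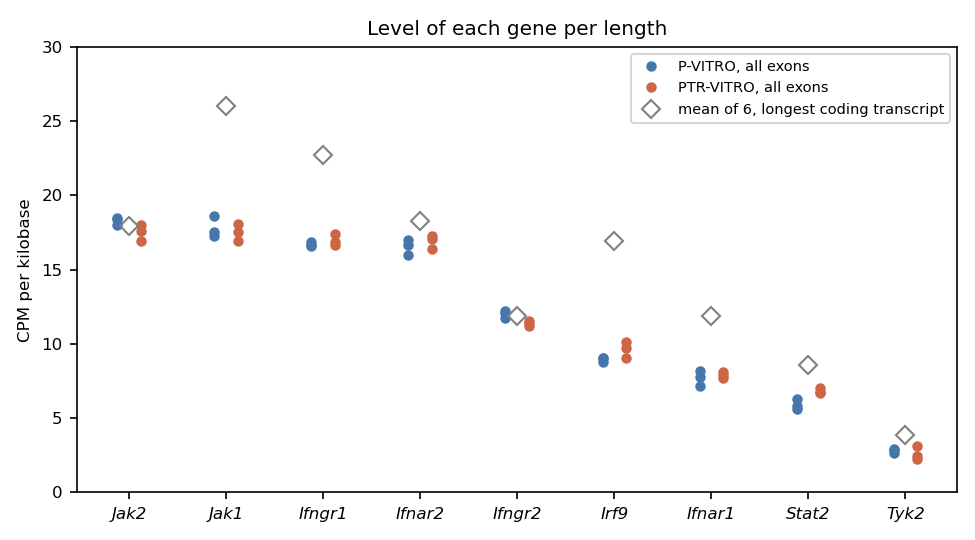
Level per kilobase of merged exons (vertical axis, CPM per kilobase) of each gene in P-VITRO (blue) and PTR-VITRO (orange) libraries, in order of the mean, with diamonds for the mean over 6 libraries per kilobase of the longest coding transcript. Tyk2 is lowest under each length, Stat2 and Ifnar1 also keep their rank, and the ranks of the other 6 genes depend on the length used.

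Ratios between partners within a library, taken per kilobase of merged exons, do not depend on the scaling between libraries. The level of a ratio depends on the length used, while its log2 difference between groups does not. The ratio of Ifngr1 to Ifngr2 was 1.42, 1.38 and 1.38 in P-VITRO and 1.51, 1.53 and 1.44 in PTR-VITRO. Every PTR-VITRO library was above every P-VITRO library, a log2 difference of 0.10 (two-sided exact permutation p = 0.1, n = 3 per group, the smallest p that 20 arrangements allow; 0.5 adjusted over the 5 ratios). The ratio of Stat2 to Irf9 was 0.717, 0.621 and 0.638 in P-VITRO and 0.742, 0.698 and 0.698 in PTR-VITRO, with overlapping groups (log2 difference 0.12, exact p = 0.3, n = 3 per group). That difference was 0.07 without P-VITRO replicate 2 and 0.18 without P-VITRO replicate 1.

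The 2 chains of the type I receptor stood at a ratio of Ifnar1 to Ifnar2 of 0.465 ± 0.0233 in P-VITRO and 0.469 ± 0.0259 in PTR-VITRO (log2 difference 0.01, exact p = 0.8, n = 3 per group). Jak1 to Jak2 was 0.972 ± 0.0345 and 1.00 ± 0.0525 (exact p = 0.5, n = 3 per group). Jak1 to Tyk2 was 6.31 ± 0.164 and 6.81 ± 1.06 (exact p = 0.5, n = 3 per group), where PTR-VITRO replicate 1 had the lowest ratio, 5.59, and replicate 3 the highest, 7.54. With 1 library left out the log2 difference ran from 0.01 to 0.08 for Jak1 to Jak2 and from 0.02 to 0.23 for Jak1 to Tyk2. None of the 5 ratios could pass 0.05 in this design.

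**Figure D4:**
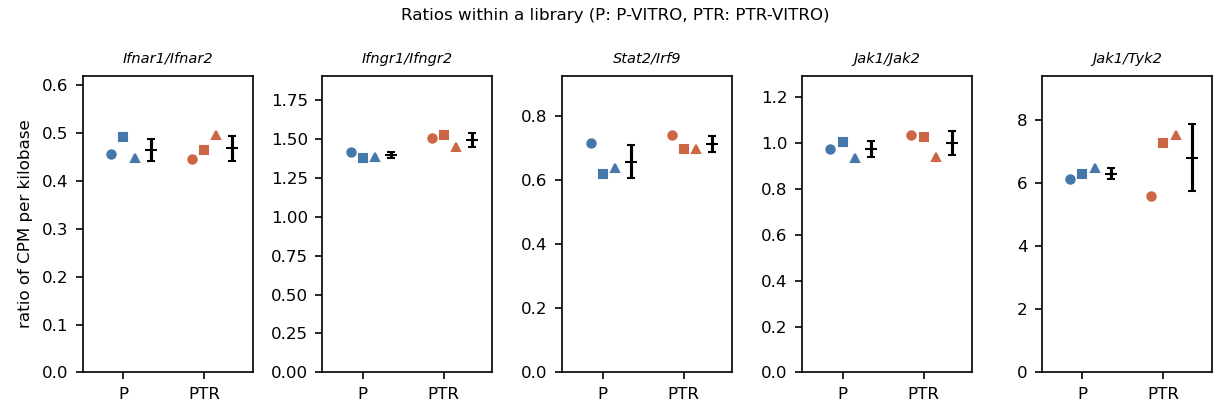
Ratio of CPM per kilobase between partner genes in each library (vertical axes from 0), P-VITRO in blue and PTR-VITRO in orange, with circles, squares and triangles for replicates 1, 2 and 3 and the mean and SD in black. Groups are apart for Ifngr1 to Ifngr2, from 1.38 to 1.42 against 1.44 to 1.53, and overlap for the other 4 ratios.

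The other genes of the pathway were taken from 7 lists of 80 genes, of which 61 were tested and 0 were called by edgeR. At an unadjusted p below 0.05 there were 8 higher and 5 lower in PTR-VITRO, where 5.26% of all tested genes were higher and 6.13% lower at that p. These counts ran from 5 to 11 higher and from 1 to 4 lower when a library was left out, and were 12 and 4 with no scaling factor. DESeq2 called 2 of the 61, Rsad2 and Oasl1, both higher, where it called 0.302% of all genes as higher and 0.478% as lower. None of the 10 ligand genes passed the filter. Ifnb1, the gene for IFNβ, had 0, 4 and 1 counts in P-VITRO and 6, 4 and 2 in PTR-VITRO. Ifna1, Ifna2, Ifna4, Ifna5 and Ifnl3 had a count of 0 in all 6 libraries, which allows up to 3 counts, or 0.169 CPM in the shallowest library, and the other ligands had at most 2 counts. Ifnlr1, the specific chain of the type III receptor, was also at 0 in every library.

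Of the 7 tested genes among other receptor chains, JAKs and STATs, 0 were called. An unadjusted p below 0.05 was reached by 3, all lower in PTR-VITRO, against 6.13% of all tested genes in this direction. This count was 0 without PTR-VITRO replicate 3 and 1 without P-VITRO replicate 1 or 3. Stat3, activated by the IL-6 family as well as by interferons, gave 78.5, 79.0 and 73.7 CPM for P-VITRO, and 72.3, 70.0 and 66.8 CPM for PTR-VITRO (log2FC -0.14, edgeR adjusted p 0.262). Its groups did not overlap. Stat5b had a log2FC of -0.13 (adjusted p 0.414) and Stat5a of -0.29 (adjusted p 0.355).

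Among the 17 negative regulators, all tested and 0 called, the median log2FC was 0.03. Of the 17, 11 lay above 0, against 48.5% of all tested genes. An unadjusted p below 0.05 was reached by 3, all higher in PTR-VITRO, against 5.26% of all tested genes in this direction. That count ran from 2 to 4 when a library was left out. Ptpn2, a phosphatase that acts on JAK1, was at 117.8 ± 2.75 CPM (n = 3) and 129 ± 3.52 CPM (n = 3), a log2FC of 0.13 (edgeR adjusted p 0.238). Socs1, which inhibits JAK kinases, was at 9.71 ± 0.783 CPM and 11.5 ± 0.515 CPM (log2FC 0.25, adjusted p 0.306). Socs6 had a log2FC of 0.13 (adjusted p 0.409), Usp18, which displaces JAK1 from IFNAR2, of 0.11 (adjusted p 0.675) and Socs3 of 0.07 (adjusted p 0.777). Groups did not overlap in 4 of the 17, all higher, against 8.27% of all tested genes in this direction.

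The 8 cofactors and transport factors had a median of -0.03 (0.00348 without P-VITRO replicate 2) with 0 called. Rack1, a scaffold reported to bind IFNAR chains, was at 1525 ± 32.9 CPM and 1427 ± 15.3 CPM (log2FC -0.10, adjusted p 0.234), and Kpnb1 and Kpna1, importins, had values of -0.03 and 0.06. Of the 13 other cytokine receptors that use these JAKs, 9 were tested and 0 called. All 9 had fitted values below 0, with a median of -0.03, where 48.5% of all tested genes lay above 0. With no scaling factor, 2 of the 9 lay above 0. An unadjusted p below 0.05 was reached by 0 of the 9, against 11.4% of all tested genes. Groups did not overlap in 2, both lower, against 9.33% in this direction. The median was -0.00717 and 4 of the 9 lay above 0 when P-VITRO replicate 2 was dropped. Il6st (gp130) had a log2FC of -0.09 (adjusted p 0.608), Il11ra1 of -0.08 (adjusted p 0.724) and Epor of -0.70 at a level below 1 CPM (adjusted p 0.502).

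For the ISGF3 targets, all 15 were tested, 0 were called by edgeR and 2, Rsad2 and Oasl1, by DESeq2. Of the 15, 14 lay above 0, against 48.5% of all tested genes, with a median of 0.11. Unadjusted p-values below 0.05 were reached by 5, all higher in PTR-VITRO, against 5.26% of all tested genes in this direction, and groups did not overlap in 4, all higher, against 8.27%. P-VITRO replicate 2 was the lowest of the 6 libraries for 12 of the 15 genes and PTR-VITRO replicate 2 the highest for 11, as they were for Stat2. Without P-VITRO replicate 2 the median was 0.04, 12 of the 15 lay above 0 and 3 had an unadjusted p below 0.05. Across the libraries left out the median ran up to 0.17 (without P-VITRO replicate 1, with 8 such genes), and 2 such genes were left without PTR-VITRO replicate 2. Rsad2 (viperin) had a log2FC of 0.28 (SE 0.059, edgeR adjusted p 0.0919), Oasl1 of 0.22 (adjusted p 0.139) and Ifit3 of 0.25 (adjusted p 0.331). The list was chosen with earlier results of these libraries known and is not independent support for the direction of Stat2. The type II (IFNγ) targets, 5 tested of 8, had a median of 0.07 with 0 called. Of the 5, 4 lay above 0, against 48.5% of all tested genes. Groups did not overlap in 2 higher and 1 lower, against 8.27% and 9.33% of all tested genes. An unadjusted p below 0.05 was reached by 1, Icam1, which was lower, against 6.13% of all tested genes in this direction. That count was 0 in DESeq2 and on dropping P-VITRO replicate 2 or replicate 1 or 3 of PTR-VITRO, while dropping P-VITRO replicate 1, or using no scaling factor, added 1 higher gene. Gbp2 had a log2FC of 0.07 (adjusted p 0.470), Cxcl10 of 0.13 (adjusted p 0.535) and Icam1 of -0.55 at a level below 2 CPM (adjusted p 0.373).

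**Figure D5:**
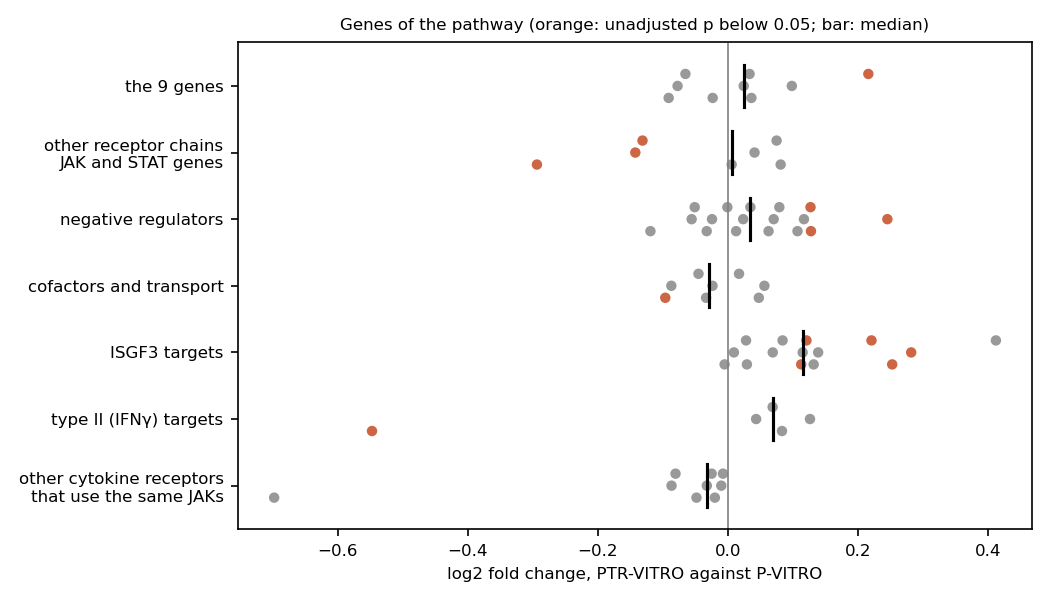
Log2FC (horizontal axis, PTR-VITRO against P-VITRO) of each tested gene by list, with the median of each list as a black bar and genes at an unadjusted p below 0.05 in orange. The median of the ISGF3 targets is 0.11, and 0.04 without P-VITRO replicate 2, and none of the genes drawn was called by edgeR, while DESeq2 called 2 of the ISGF3 targets, Rsad2 and Oasl1.

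For each member the tested gene with the most similar log2 CPM profile over the 6 libraries was searched among 11805 genes with a mean count of at least 50. These were Ttll4 for Ifnar1, Pex7 for Ifnar2, Tpp1 for Ifngr1, Pex14 for Ifngr2, Prr14l for Jak1, Slc7a6 for Jak2, Zfp771 for Tyk2, Tctex1d2 for Stat2 and Gm3724 for Irf9. Pearson r ran from 0.973 (Ifngr1) to 0.997 (Jak2). The 6 points share library, depth and scaling, and between 8 and 46 genes exceeded an r of 0.95 for each member, so the names are a description of these libraries. No member was named as the closest match of another.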

How the data were processed

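Polyadenylated RNA of 6 EMT6 libraries (TruSeq Stranded mRNA) was sequenced by the study. Per the submitters' processing notes and the study's methods, the authors checked reads with FastQC 0.11.5, aligned them to GRCm38 (GENCODE) with STAR 2.6.0a and deposited gene-level estimated counts (RSEM 1.3.1), not scaled between samples. The strand setting of RSEM is not given in the sources used here. Gene names and positions came from GENCODE on GRCm38, a later release than the authors'.

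Estimated counts were rounded, filtered with filterByExpr (minimum count 10, minimum total 15) and scaled by the upper quartile. The study also filtered its counts and scaled them by the upper quartile in edgeR, and it states no rule for the filter. Groups were compared in edgeR 4.0.16 (R 4.3.3) by its quasi-likelihood F test without covariates. Benjamini-Hochberg adjustment covered the 14217 genes that passed, and a gene is called where the adjusted value is under 0.05. Standard errors and 95% intervals came from the F statistic. CPM are upper-quartile scaled. Ratios were compared by two-sided exact permutation tests. The steps were tested on simulated data. Alternatives were TMM, no scaling factor, DESeq2 1.42.0, limma-voom (limma 3.58.1), 2 other filters, a replicate block, leaving out each library and, for ratios, unrounded counts. The list medians with a library left out were added after seeing the data.

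The 9 genes and the lists were chosen with earlier results of these data known. Named genes were all 9, the 3 genes of each list with the smallest p, any called gene, Stat3, Socs1, Socs3, Usp18 and Il10rb, and the closest match of each member. A further gene of this rule is not reported here. Copies of the 9 genes were searched in transcripts with BLAST+ at 95% identity over at least 200 bases. A match was found for Ifnar2 (Gm21970) and Tyk2 (1700084C06Rik).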

Additional observations from a re-analysis of the deposited data

How the results depend on the processing

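Of 63 comparisons of the 9 log2 fold changes with other settings, 62 kept direction and side of the threshold, and Stat2 passed it without a filter on low counts (log2 fold change 0.22, adjusted p 0.026), which made members called 1 in place of 0. With 1 library left out, 51 of 54 kept them and 3 reversed. The log2 fold changes then ran from -0.0123 to 0.0862 for Ifnar1, negative without P-VITRO replicate 3, and from -0.0453 to 0.0112 for Jak1, positive when P-VITRO replicate 2 (0.0112) or replicate 3 of PTR-VITRO (0.00246) was dropped. They ran from -0.25 to -0.00182 for Tyk2 and from 0.18 to 0.27 for Stat2, and members called stayed at 0 in these fits.

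The 35 genes called over all genes became 400 when no filter was used, 54 under a minimum of 10 counts in each library, 68 with the replicate block, 111 with DESeq2, and 8 (PTR-VITRO replicate 3 dropped) to 64 (P-VITRO replicate 2 dropped) with 1 library left out. Calls in the pathway lists went from 0 to 2 without a filter and with DESeq2 (Rsad2 and Oasl1 in each), and to 0 to 1 with 1 library left out (Rsad2, without PTR-VITRO replicate 1). The replicate numbers did not pair the samples, with correlations of 0.109, 0.095 and -0.0556 for equal numbers, and the replicate block called none of the 9 genes. The ratio of Ifnar1 to Ifnar2 ran from -0.0311 to 0.0516 (log2 difference) and reversed on dropping P-VITRO replicate 1 (-0.00161) or 3 (-0.0164), or replicate 3 of PTR-VITRO (-0.0311). Ifngr1 to Ifngr2 ran from 0.08 to 0.12. The causes were not tested. Fits that drop a library hold fewer samples. The interferon ligands had too few counts to pass the filter and were not tested.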
